A study of Danio rerio with 20 samples.

Results

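Larvae kept with a low level of perfluorooctanesulfonic acid (PFOS) alone were compared with larvae kept with the solvent, in 8 of the 20 samples of the series. PFOS is a perfluorinated surfactant of coatings and fire-fighting foams that is hardly degraded in the environment. It binds serum albumin and fatty acid-binding proteins, gathers in the liver, and in rodents it activates the fatty acid receptor PPAR alpha. All samples were whole zebrafish larvae of the AB wild-type strain, taken at 96 hours post fertilization (hpf) after an exposure that began at 6 hpf, and each was a pool of 10 larvae. The 4 PFOS10 samples had PFOS at the amount it has in a mixture of persistent organic pollutants set to 10 times average Scandinavian blood levels, and the 4 Control samples had 0.1% dimethyl sulfoxide. The solvent level of the exposed larvae is not stated in the labels. The 4 PFOS70 samples (PFOS at the amount in the mixture at 70 times blood levels) and the 4 POP10 samples (the mixture itself at 10 times blood levels) were used for tests of the difference from PFOS10. The 4 POP70 samples had the mixture at 70 times blood levels. They were not compared here, but counted toward the choice of genes tested and the shared estimate of error. At this stage the larva still draws on its yolk, while its liver, gut and pancreas have begun to work, ionocytes of the skin handle salts and acid, and the retina and brain still add neurons.

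RNA sequencing gave 1 level per gene and library as log2 RPM, the log2 of reads scaled to a common total per library. RPM is not divided by transcript length, so levels are compared between groups and not between genes. Of 22851 genes in the table, 19289 reached 0 log2 RPM in at least 4 of the 20 libraries and were tested. Depth, recovered from the values as the total used for scaling, was 9742685 to 10116412 reads in the 4 PFOS10 libraries and 10144608 to 10945746 in the 4 Control libraries. The RPM of all transcripts summed to 3126704 to 3354701 in PFOS10 and 3308512 to 3346044 in Control, so that total was not the sum over the transcripts. The reason was not tested. Transcripts with 0 reads numbered 4014 to 4120 in PFOS10 and 3422 to 3690 in Control. The first principal component, with 39.6% of the variance of the 20 libraries, placed PFOS10 at -61.5 to -49.4 and Control at -21.9 to 14.7. Control replicate 4 stood apart in liver genes: the mean of 36 hepatocyte genes was 3.63, 3.29, 3.38 and 5.08 log2 RPM in Control replicates 1 to 4. Results on such genes are therefore given with and without it. A batch, day or clutch is named in no label, so exposure and any batch that followed the groups cannot be told apart. The p-values take their error from the variation among pools alone, shared over all 20 libraries. Part of that variation may be technical.

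With the libraries scaled as deposited, most called differences between PFOS10 and Control larvae were falls. With an adjusted p under 0.05 as the threshold, 1591 genes (8.25%) were called, 247 of them higher (1.28%) and 1344 lower (6.97%) in PFOS10. The called falls had a median log2 difference (PFOS10 minus Control) of -0.79 and the called rises one of 0.33. A fall of at least 2-fold was found in 466 genes and one of at least 4-fold in 65, while 2 genes were at least 2-fold higher. The plot of all genes tested shows that the called falls lay at lower levels, with a median of 3.87 log2 RPM over the 8 libraries, than the called rises, with a median of 6.46. The 4 PFOS10 values lay wholly above or wholly below the 4 Control values in 2308 genes (12.0%), among them 1085 of the called genes. In whole larvae, fewer cells of a type and less RNA per cell cannot be told apart.

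**Figure D1:**
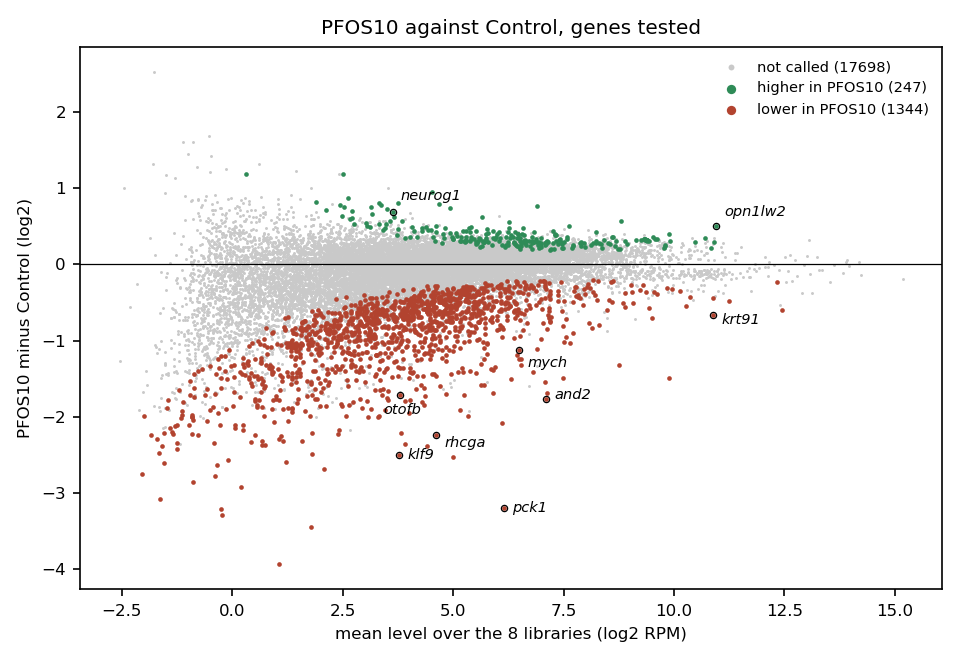
Log2 difference between PFOS10 and Control (vertical axis) against the mean level over the 8 libraries (horizontal axis, log2 RPM) for the 19289 genes tested, with the 247 called higher in green, the 1344 called lower in red and 9 genes named. The red points reach much farther from 0 than the green ones, with pck1 at -3.19 and neurog1 at 0.68.

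The split between rises and falls depended on how libraries were scaled. Of the called genes 15.5% were higher, against 31.8% (261 of 820) under quantile normalization and 51.0% (1132 of 2219) once library medians were made equal. Single libraries moved the number of called genes by over 1.5 times. It was 722 without PFOS10 replicate 1, 738 without replicate 3 and 2516 without replicate 4, and 736, 656 and 367 without Control replicates 1, 2 and 4. Of these 47, 67, 863, 62, 99 and 24 were higher. The plot of gene lists shows which groups of genes moved in which direction, as the median difference of each list and the number of its members called. Over all genes tested, the median difference was -0.03. Of the 19289 genes, 343 were lower without Control replicate 4, 559 under quantile normalization and 1087 with equal medians. With voom on the recovered reads 905 were lower, and with only the groups compared 863. List counts for those runs are to be read against these.

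**Figure D2:**
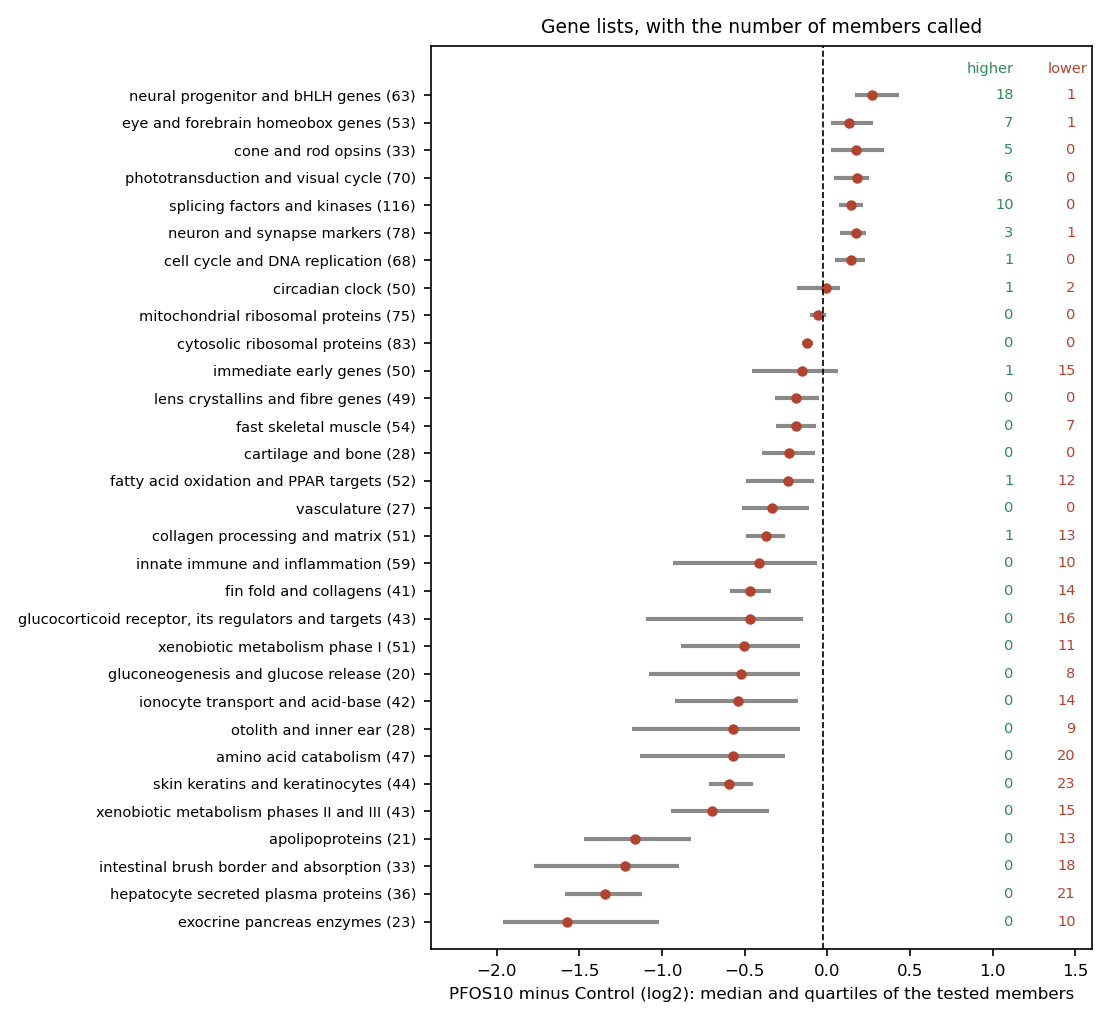
Median log2 difference between PFOS10 and Control (points) with the lower and upper quartile (bars) for the tested members of 31 gene lists, with the number tested in brackets and the members called higher and lower on the right. The dashed line marks the median of all genes tested, and lists of liver, gut and pancreas genes lie farthest below it. Lists of neural, eye homeobox, opsin and phototransduction genes lie above it, while the lens list lies below it at -0.19.

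Part of a list of genes for the glucocorticoid receptor, its regulators and its known targets fell in PFOS10 larvae. Cortisol binds this receptor, which then enters the nucleus and switches on genes of glucose supply and genes that damp inflammation. Of 43 genes for the receptor, its regulators and its targets, 16 fell (37.2%, against 6.97% of all genes tested) and 0 rose, with a median difference of -0.47. klf9, a transcription factor induced by glucocorticoids, had 2.27, 2.25, 2.88 and 2.72 log2 RPM in PFOS10 larvae, against 4.64, 4.98, 4.58 and 5.95 in Control larvae. Every PFOS10 value lay below every Control value, by more than the spread within either group. The difference was -2.51 ± 0.27 (SE, adjusted p = 6.41e-05), a 5.68-fold fall, for the gene at chromosome 5, 26075230 to 26078165 of GRCz11. fkbp5 encodes a chaperone that is induced by the receptor and lowers its affinity for cortisol. It had 5.80, 6.26, 6.87 and 6.30 log2 RPM in PFOS10 larvae, against 7.26, 7.83, 7.46 and 8.82 in Control larvae. The groups did not overlap, Control replicate 4 was the highest of the 8, and the difference was -1.54 ± 0.26 (SE, adjusted p = 0.00247) at chromosome 6, 41096058 to 41116053. pck1, whose enzyme controls the entry into gluconeogenesis, had 4.15, 5.44, 5.21 and 3.40 log2 RPM in PFOS10 larvae, against 7.21, 7.73, 6.87 and 9.15 in Control larvae. Here too all PFOS10 values were lower. The difference was -3.19 ± 0.46 (SE, adjusted p = 0.00106), and the fall of 9.14-fold was the largest among genes with a mean of at least 5 log2 RPM over the 8 libraries, non-overlapping groups and a gene symbol.

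The other called targets included genes of glucose use and of inflammatory signalling. pdk2b, a kinase that shuts pyruvate out of oxidation, had 4.30, 5.71, 5.24 and 4.97 log2 RPM in PFOS10 larvae, against 6.62, 6.56, 6.22 and 7.60 in Control larvae. cebpd, a transcription factor of the acute-phase response, had 5.56, 5.33, 6.61 and 5.90 log2 RPM in PFOS10 larvae, against 6.81, 7.05, 6.80 and 7.48 in Control larvae. nfkbiaa, the inhibitor that holds NF-kappaB in the cytoplasm, had 3.25, 3.51, 3.93 and 4.36 log2 RPM in PFOS10 larvae, against 5.06, 4.99, 4.81 and 4.90 in Control larvae. In each of these genes the PFOS10 values were all below the Control values, and PFOS10 replicate 3 or 4 was the nearest to Control in cebpd and nfkbiaa. The differences were -1.69 ± 0.30 (adjusted p = 0.00376), -1.18 ± 0.20 (adjusted p = 0.00267) and -1.18 ± 0.18 (adjusted p = 0.00106). socs3a, which damps cytokine receptor signalling, differed by -1.24 ± 0.25 (SE, adjusted p = 0.00797), again without overlap. The 7 genes named here as called kept their calls without each of the 8 libraries in turn, with adjusted p of at most 0.04. The count of the list was 13 without Control replicate 4 and 13 to 21 over the 8 fits that each left out a library.

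The receptor gene itself, nr3c1, chosen after its values were seen, had 6.85, 6.71, 6.66 and 6.65 log2 RPM in PFOS10 larvae, against 6.68, 6.72, 6.61 and 6.65 in Control larvae. The groups overlapped, and the difference was 0.05 ± 0.06 (SE, adjusted p = 0.664). Of 16 genes of the stress axis and steroid synthesis, 1 was called higher and 1 lower. Each was 6.25% of the list, against 1.28% of all genes tested for rises and 6.97% for falls. The higher one was cyp11c1, whose enzyme makes cortisol in zebrafish, with 3.80, 4.03, 4.12 and 3.75 log2 RPM in PFOS10 larvae, against 3.66, 3.61, 3.43 and 3.44 in Control larvae. Its groups did not overlap, and the difference was 0.39 ± 0.12 (SE, adjusted p = 0.0452), but the call was lost without any of 7 of the 8 libraries (PFOS10 replicate 4 was the exception), with adjusted p up to 0.141. The lower one was pomca, the precursor of the pituitary hormone that drives cortisol release, named after its values were seen. It had 0.30, 1.12, 1.0 and 0.76 log2 RPM in PFOS10 larvae, against 1.80, 1.68, 2.36 and 1.56 in Control larvae. The pomca groups did not overlap, and the difference of -1.05 ± 0.28 (SE, adjusted p = 0.0283) was lost without PFOS10 replicate 1 or any 1 of the 4 Control libraries (up to 0.0915).

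**Figure D3:**
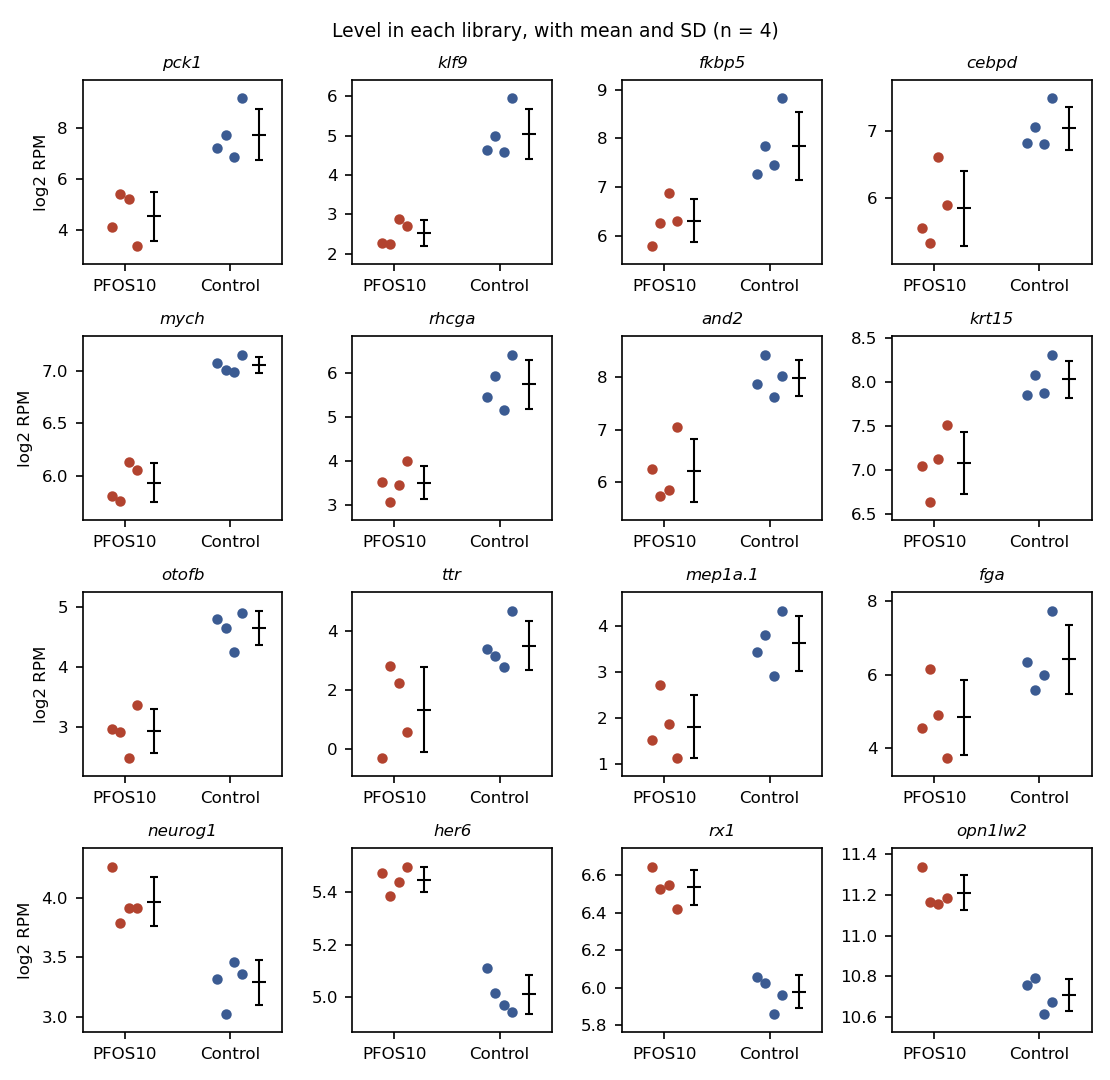
Level of 16 genes in each of the 4 PFOS10 (red, left) and 4 Control (blue, right) libraries, in log2 RPM on axes that do not start at 0, with the mean and SD of each group beside the points. In pck1, klf9, fkbp5, cebpd, mych, rhcga, and2, krt15, otofb and mep1a.1 all PFOS10 points lie below all Control points, in neurog1, her6, rx1 and opn1lw2 all lie above, and in ttr and fga the groups overlap.

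Many genes that make glucose or break down amino acids fell in PFOS10. Of 20 genes of gluconeogenesis and glucose release 8 fell and 0 rose (median -0.52), and of 47 genes of amino acid catabolism 20 fell and 0 rose (median -0.57). The falls were 40.0% and 42.6% of the lists, against 6.97% of all genes tested. pck1 stands in both the gluconeogenesis and the glucocorticoid list, so the counts of those lists do not add up to distinct genes. g6pca.2, whose enzyme frees glucose in the last step of its release, had 3.70, 4.08, 5.30 and 3.75 log2 RPM in PFOS10 larvae, against 5.68, 6.17, 5.61 and 7.02 in Control larvae. pck2, the mitochondrial form of the pck1 enzyme, had 4.81, 5.48, 5.21 and 4.81 log2 RPM in PFOS10 larvae, against 6.21, 6.56, 5.72 and 6.80 in Control larvae. gls2a, a glutaminase that feeds glutamine into the same pathway, had 2.42, 3.52, 2.17 and 2.72 log2 RPM in PFOS10 larvae, against 4.33, 4.35, 4.10 and 4.68 in Control larvae. None of these groups overlapped, and the differences were -1.91 ± 0.32 (adjusted p = 0.0024), -1.24 ± 0.24 (adjusted p = 0.00654) and -1.66 ± 0.24 (adjusted p = 0.00106). agxtb, an aminotransferase that detoxifies glyoxylate, had 3.06, 5.59, 4.11 and 2.17 log2 RPM in PFOS10 larvae, against 6.20, 5.68, 5.25 and 7.88 in Control larvae. PFOS10 replicate 2 lay above the lowest Control pool, and the difference was -2.52 ± 0.57 (SE, adjusted p = 0.013). That call was lost without Control replicate 4 (adjusted p = 0.0622), which was the highest of the 8, while pck1, g6pca.2, pck2 and gls2a kept theirs without each library. fbp1b, agxta and gls2b differed by -1.40 ± 0.34 (adjusted p = 0.0176), -1.47 ± 0.35 (adjusted p = 0.017) and -1.38 ± 0.35 (adjusted p = 0.0223), and each missed the threshold without Control replicate 4 and at least 1 other library (adjusted p up to 0.102). Without Control replicate 4 the counts were 4 of 20 for gluconeogenesis and 6 of 47 for amino acid catabolism, with medians of -0.37 and -0.45.

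Part of the list of fatty acid oxidation and PPAR targets fell, with 3 uncoupling proteins among the genes named from it. Genes were named as called members with the largest differences, so the direction of these 3 follows from that choice. Uncoupling proteins are carriers of the inner mitochondrial membrane, and ucp1 is known for heat production in mammalian brown fat. ucp1 had 4.12, 5.32, 4.12 and 3.79 log2 RPM in PFOS10 larvae, against 6.23, 6.44, 5.29 and 7.35 in Control larvae. ucp2 had 6.49, 7.49, 7.20 and 7.30 log2 RPM in PFOS10 larvae, against 8.28, 8.12, 7.83 and 8.41 in Control larvae. ucp3 had 2.80, 2.83, 4.44 and 3.31 log2 RPM in PFOS10 larvae, against 4.08, 4.55, 4.52 and 5.95 in Control larvae. The groups did not overlap in ucp2, while in ucp1 and ucp3 the highest PFOS10 value passed the lowest Control value. The differences were -1.99 ± 0.41 (adjusted p = 0.00803), -1.04 ± 0.16 (adjusted p = 0.00137) and -1.43 ± 0.34 (adjusted p = 0.0177). The call of ucp3 was lost without Control replicate 4 or PFOS10 replicate 1 (adjusted p up to 0.0755). In all, 12 of 52 genes of the list fell (23.1%, against 6.97% of all genes tested) and 1 rose. The list median was -0.24, and 4 fell without Control replicate 4. cpt1b, which takes fatty acids into muscle mitochondria, differed by -0.62 ± 0.18 (adjusted p = 0.0355), and missed the threshold without any of 5 libraries, with adjusted p up to 0.127. The gene that rose was fabp7a, a brain fatty acid-binding protein that also stands in the list of neural progenitor genes, with a difference of 0.40 ± 0.10 (adjusted p = 0.0228). That call was lost without PFOS10 replicate 1 or 3 or Control replicate 1 or 4 (up to 0.0991).

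Many genes of liver products fell in PFOS10, and their counts depended on single libraries. The liver secretes most plasma proteins and the apolipoproteins that carry lipid from yolk and gut. Of 36 hepatocyte genes 21 fell and of 21 apolipoprotein genes 13 fell, with 0 rises in both and medians of -1.35 and -1.16. The falls were 58.3% and 61.9% of the lists, against 6.97% of all genes tested. The mean level of the hepatocyte genes was 2.21, 3.26, 2.58 and 1.73 log2 RPM in PFOS10, against 3.63, 3.29, 3.38 and 5.08 in Control. PFOS10 replicate 2 was at nearly the level of Control replicate 2, and Control replicate 4 was far above the other pools. Without Control replicate 4 the counts were 6 of 36 and 1 of 21, and the medians -0.95 and -1.0. A fit of the recovered reads with voom called 12 hepatocyte genes lower, and one of only the groups compared 8. agt, the angiotensinogen gene, had 1.47, 2.31, 1.72 and 0.76 log2 RPM in PFOS10 larvae, against 3.24, 2.91, 3.21 and 4.32 in Control larvae. All PFOS10 values were lower, the difference was -1.85 ± 0.33 (SE, adjusted p = 0.0034), and among the liver genes named here this was the 1 call that held without each library (adjusted p of at most 0.0176).

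ttr, whose product carries thyroid hormone, had -0.28, 2.81, 2.26 and 0.58 log2 RPM in PFOS10 larvae, against 3.40, 3.16, 2.78 and 4.70 in Control larvae. In ttr PFOS10 replicate 2 passed the lowest Control value, and PFOS10 replicate 1 was below 0 log2 RPM. Its difference was -2.17 ± 0.50 (SE, adjusted p = 0.0145), and without Control replicate 4 adjusted p was 0.0698. fga, a fibrinogen chain of blood clots, had 4.54, 6.17, 4.91 and 3.73 log2 RPM in PFOS10 larvae, against 6.34, 5.58, 6.00 and 7.75 in Control larvae. In fga PFOS10 replicate 2 again lay within the Control range, and the difference of -1.58 ± 0.40 (SE, adjusted p = 0.0222) missed the threshold without PFOS10 replicate 1 or Control replicate 4 (up to 0.0968). apobb.1, the large protein on which lipoproteins are built, had 7.52, 7.15, 6.50 and 5.76 log2 RPM in PFOS10 larvae, against 8.18, 8.30, 7.69 and 8.75 in Control larvae. Its groups did not overlap and the difference was -1.50 ± 0.37 (SE, adjusted p = 0.0201), which missed the threshold without PFOS10 replicate 3 or Control replicate 2 or 4 (up to 0.0841). The differences of apoa1b, the main protein of high-density lipoprotein, and of apoc2, the activator of lipoprotein lipase, were -1.49 ± 0.38 (adjusted p = 0.0221) and -1.50 ± 0.37 (adjusted p = 0.0189). Both overlapped and both were lost without PFOS10 replicate 1 or Control replicate 4, apoc2 also without Control replicate 2 (up to 0.098 and 0.0793). fabp10a, the liver fatty acid-binding protein, had 2.33, 6.28, 5.40 and 3.56 log2 RPM in PFOS10 larvae, against 6.00, 5.59, 5.70 and 8.01 in Control larvae. The PFOS10 values spanned a wide range, the groups overlapped, and the difference of -1.93 ± 0.61 (SE, adjusted p = 0.0543) did not pass. It passed without PFOS10 replicate 2 or Control replicate 3 (log2 differences -2.56 and -2.14).

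Many genes of digestion in gut and pancreas fell in PFOS10. Of 33 genes of the intestinal brush border and of absorption 18 fell (median -1.23), and of 23 exocrine pancreas enzymes 10 fell (median -1.58), with 0 rises in both. The falls were 54.5% and 43.5% of the lists, against 6.97% of all genes tested. mep1a.2, a metalloprotease of the brush border, had 2.11, 2.71, 1.84 and 1.96 log2 RPM in PFOS10 larvae, against 3.46, 4.26, 3.48 and 4.62 in Control larvae. mep1a.1, of the same enzyme family, had 1.52, 2.73, 1.88 and 1.14 log2 RPM in PFOS10 larvae, against 3.43, 3.81, 2.93 and 4.34 in Control larvae. Neither gene had overlapping groups, and the differences were -1.80 ± 0.33 (adjusted p = 0.00443) at chromosome 20, 35484070 to 35496136 and -1.81 ± 0.37 (adjusted p = 0.00803) at chromosome 20, 35473288 to 35481584. anpepb, an aminopeptidase that frees amino acids from peptides, had 5.17, 5.48, 5.41 and 5.06 log2 RPM in PFOS10 larvae, against 6.38, 6.78, 6.13 and 7.20 in Control larvae. The 4 PFOS10 values lay close together and below every Control value, and the difference of -1.35 ± 0.32 (SE, adjusted p = 0.0175) was lost without Control replicate 4 (adjusted p = 0.0793). ctrl, a chymotrypsin-like protease of the pancreas, had 1.89, 3.10, 2.96 and 1.26 log2 RPM in PFOS10 larvae, against 4.09, 4.76, 4.21 and 4.17 in Control larvae. Its PFOS10 replicates 2 and 3 lay above replicates 1 and 4, yet all were below Control, and the difference was -2.0 ± 0.50 (SE, adjusted p = 0.0214). ela3l, an elastase, and prss59.1, a trypsin-like protease, showed the same order of PFOS10 pools, with differences of -2.01 ± 0.53 (adjusted p = 0.0256) and -2.22 ± 0.64 (adjusted p = 0.0372). All 3 pancreas calls were lost without PFOS10 replicate 1 or Control replicate 2 or 4, and those of ela3l and prss59.1 without PFOS10 replicate 4 too (adjusted p up to 0.0643, 0.0887 and 0.124); prss59.1 was also lost without Control replicate 1. Over the fits that each left out 1 library, 2 to 24 intestine genes and 1 to 11 pancreas enzymes were called lower, with 2 and 1 without Control replicate 4. The counts were 9 and 3 under quantile normalization, and 10 and 1 with voom. Since 905 of all 19289 genes were lower with voom, 1 of 23 pancreas enzymes was near the share of all genes in that fit.

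Endocrine islet genes and cdx1b did not pass in the fit of all 20 libraries, while the mucin genes muc5.1 and muc5.2 did. Of 17 genes of the endocrine islet 0 were called (median -0.15), and ins, the insulin gene, chosen after its values were seen, had 1.52, 1.47, 2.38 and -1.0 log2 RPM in PFOS10 larvae, against 1.80, 2.38, 2.38 and 1.18 in Control larvae. The ins groups overlapped (adjusted p = 0.474). cdx1b, a transcription factor of the intestinal epithelium, also chosen after its values were seen, had 3.51, 2.87, 3.38 and 3.15 log2 RPM in PFOS10 larvae, against 4.10, 4.26, 3.61 and 3.84 in Control larvae. Its groups did not overlap, but the difference of -0.72 ± 0.31 (SE, adjusted p = 0.149) did not pass in the fit of all 20 libraries. It passed when only the groups compared were fitted, with the same difference of -0.72. muc5.1 and muc5.2 encode mucins, the gel proteins of mucous cells, and stand in the list of swim bladder and gill genes. Of this list 5 of 13 fell (38.5%, against 6.97% of all genes tested) and 0 rose. muc5.1 had 3.66, 4.13, 4.00 and 3.83 log2 RPM in PFOS10 larvae, against 5.13, 5.29, 4.75 and 4.95 in Control larvae. muc5.2 had 2.91, 3.93, 3.98 and 3.18 log2 RPM in PFOS10 larvae, against 5.46, 5.30, 5.02 and 5.11 in Control larvae. In both genes the groups were well apart, and the differences of -1.13 ± 0.17 (adjusted p = 0.00106) and -1.72 ± 0.34 (adjusted p = 0.00731) held without each of the 8 libraries.

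Some genes that process foreign compounds fell, and none rose. Of 51 phase I genes, which oxidize or cleave such compounds, 11 fell (median -0.51), and of 43 phase II and III genes, which conjugate and export them, 15 fell (median -0.70). The falls were 21.6% and 34.9% of the lists, against 6.97% of all genes tested. cyp1a, which the aryl hydrocarbon receptor switches on, had 2.21, 2.54, 2.29 and 1.53 log2 RPM in PFOS10 larvae, against 2.76, 3.28, 2.82 and 3.73 in Control larvae. abcg2a, an exporter of the cell membrane, had 4.60, 4.40, 5.05 and 4.35 log2 RPM in PFOS10 larvae, against 5.32, 6.01, 5.31 and 6.15 in Control larvae. abcc2, an exporter of the bile canaliculus and the brush border, had 4.01, 4.56, 4.56 and 3.73 log2 RPM in PFOS10 larvae, against 5.32, 6.13, 4.61 and 5.85 in Control larvae. In each of these genes the PFOS10 values were all below the Control values, though in abcc2 the highest PFOS10 and the lowest Control pool were close. The differences were -1.0 ± 0.29 (adjusted p = 0.0381), -1.10 ± 0.26 (adjusted p = 0.0162) and -1.26 ± 0.35 (adjusted p = 0.0314). cyp3a65, a drug-metabolizing enzyme of liver and gut, differed by -1.70 ± 0.51 (adjusted p = 0.0448) with overlapping groups, and sult2st2, a sulfotransferase, by -1.14 ± 0.31 (adjusted p = 0.0315) without overlap. None of these 5 genes kept its call without each library. All were lost without Control replicate 2 and without Control replicate 4, and adjusted p reached 0.0739 for abcg2a, 0.151 for cyp1a and 0.162 for cyp3a65. Without Control replicate 4, 2 phase I and 5 phase II and III genes were lower. Under quantile normalization these counts were 3 and 7, and with voom 5 and 8.

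Many genes of keratinocytes and some of ionocytes fell in PFOS10. Keratins form the filaments of skin cells, and ionocytes take up salts and give off acid and ammonia. Of 44 genes of keratins and keratinocytes 23 fell (median -0.59) and of 42 ionocyte genes 14 fell (median -0.54), with 0 rises in both. The falls were 52.3% and 33.3% of the lists, against 6.97% of all genes tested. krt15 had 7.04, 6.64, 7.12 and 7.51 log2 RPM in PFOS10 larvae, against 7.85, 8.08, 7.88 and 8.31 in Control larvae. krt92 had 7.24, 6.46, 7.13 and 7.15 log2 RPM in PFOS10 larvae, against 7.86, 8.37, 7.63 and 8.18 in Control larvae. PFOS10 replicate 2 was the lowest of the 8 libraries in both genes, and neither gene had overlapping groups. The difference of krt15 was -0.95 ± 0.18 (SE, adjusted p = 0.00576) and held without each library. That of krt92 was -1.02 ± 0.25 (SE, adjusted p = 0.018), and it was lost without PFOS10 replicate 2 or Control replicate 2 or 4 (adjusted p up to 0.0691). The number of keratin-list genes called was 4 without Control replicate 4, where the median was -0.57, and 4 to 37 over the 8 fits that each left out a library. It was 14 both under quantile normalization and with only the groups compared. The mean level of the 44 genes was 6.085, 5.573, 5.882 and 6.534 log2 RPM in PFOS10, against 6.605, 6.721, 6.522 and 6.621 in Control. PFOS10 replicate 4 thus lay within the Control range.

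Rh glycoproteins, which carry ammonia out of the larva, were among the ionocyte genes that fell. rhcga had 3.51, 3.07, 3.44 and 4.00 log2 RPM in PFOS10 larvae, against 5.45, 5.93, 5.16 and 6.42 in Control larvae. rhcgb had 1.72, 2.75, 2.48 and 2.14 log2 RPM in PFOS10 larvae, against 3.71, 4.23, 3.15 and 3.59 in Control larvae. rhcgl1 had 2.69, 2.93, 2.10 and 3.21 log2 RPM in PFOS10 larvae, against 5.51, 5.09, 3.97 and 5.79 in Control larvae. The groups were apart in all 3, and the differences were -2.23 ± 0.29 (adjusted p = 0.000694), -1.40 ± 0.26 (adjusted p = 0.00465) and -2.36 ± 0.55 (adjusted p = 0.015). rhcga is at chromosome 7, 14291323 to 14302716, rhcgb at chromosome 25, 8581541 to 8602437 and rhcgl1 at chromosome 6, 36381709 to 36391687. kcnj1a.2, an inward-rectifying potassium channel of ionocytes, had 1.04, 1.87, 1.63 and 1.96 log2 RPM in PFOS10 larvae, against 2.72, 3.41, 3.03 and 3.01 in Control larvae and differed by -1.42 ± 0.31 (SE, adjusted p = 0.0113). Of these 4, rhcgl1 lost its call without Control replicate 4 (adjusted p = 0.0659), and the others kept theirs without each library. The mean level of the 42 ionocyte genes was 3.85, 3.74, 3.77 and 3.87 log2 RPM in PFOS10, against 4.43, 4.64, 4.17 and 4.58 in Control. The PFOS10 pools were close to each other and all below Control, and without Control replicate 4 the count was 9 of 42.

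**Figure D4:**
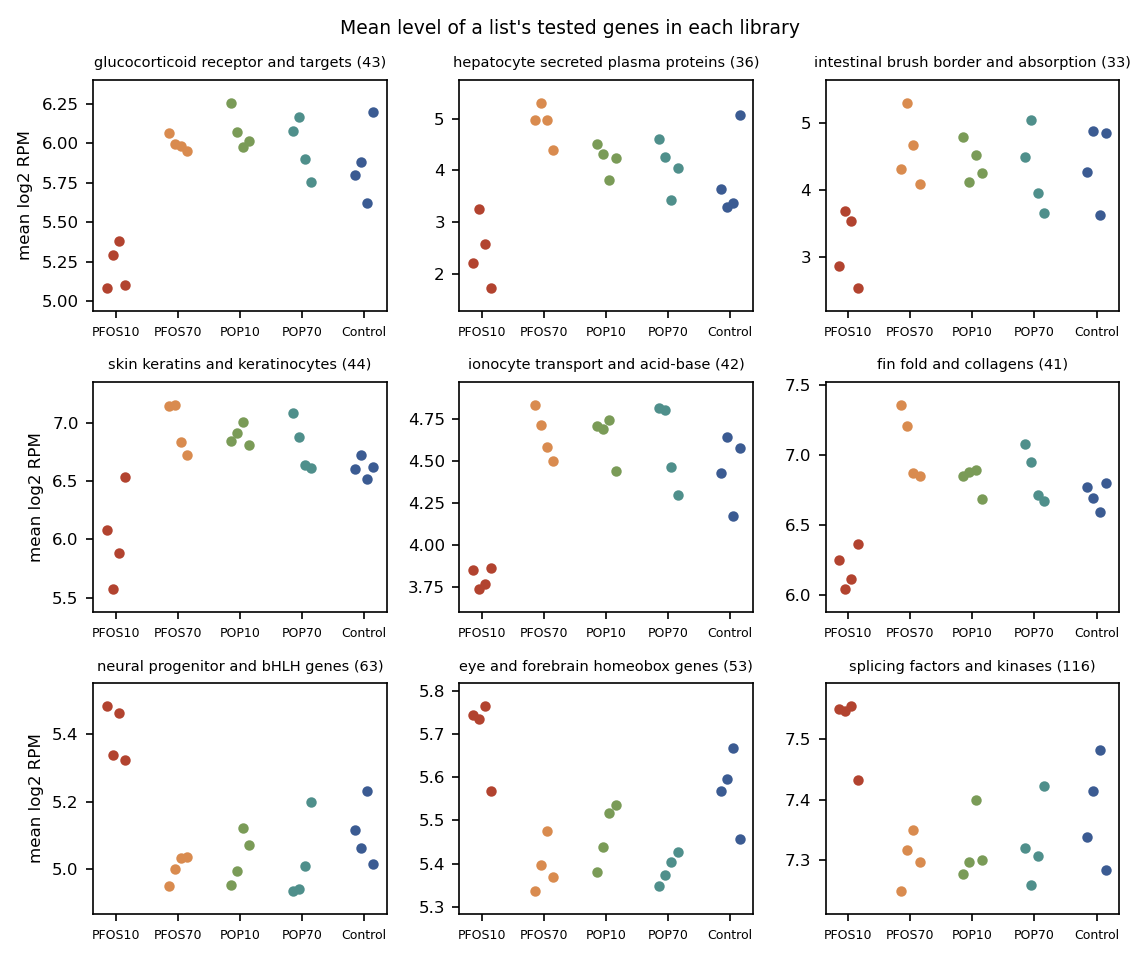
Mean log2 RPM of the tested genes of 9 lists in each library, on axes that do not start at 0. The 5 groups of 4 stand along the horizontal axis in the order PFOS10, PFOS70, POP10, POP70 and Control. Ionocyte, fin fold and glucocorticoid genes lie lower in all PFOS10 libraries than in all others, neural progenitor genes lie higher, and Control replicate 4 stands above the other Control libraries in hepatocyte genes.

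Some genes of fin fold and matrix fell as well. They were 34.1% of the fin fold list and 25.5% of the matrix list, against 6.97% of all genes tested. Actinodins form the stiff fibrils of the larval fin fold. and2 had 6.25, 5.74, 5.84 and 7.05 log2 RPM in PFOS10 larvae, against 7.87, 8.43, 7.63 and 8.02 in Control larvae. and1 had 5.88, 5.56, 5.44 and 6.65 log2 RPM in PFOS10 larvae, against 7.03, 7.74, 6.76 and 6.92 in Control larvae. and3 had 4.59, 3.59, 4.23 and 5.68 log2 RPM in PFOS10 larvae, against 5.87, 6.63, 5.54 and 5.70 in Control larvae. PFOS10 replicate 4 was the highest exposed pool in all 3 genes, and in and3 alone it lay within the Control range. The differences were -1.77 ± 0.27 (adjusted p = 0.00113), -1.24 ± 0.27 (adjusted p = 0.0118) and -1.41 ± 0.34 (adjusted p = 0.0169), and that of and3 was lost without PFOS10 replicate 3 or Control replicate 2 (up to 0.061). col10a1a, a type X collagen, differed by -1.36 ± 0.28 (adjusted p = 0.00769), and mmp30, a matrix-degrading protease, by -1.24 ± 0.20 (adjusted p = 0.00205). Both had groups that did not overlap, and both held without each library. In all, 14 of 41 genes of fin fold and collagens fell (median -0.47; 8 without Control replicate 4), and 13 of 51 genes of collagen processing and matrix fell (median -0.37; 3 to 15 over the fits that each left out 1 library, lowest without Control replicate 1, and 6 under quantile normalization). The 1 matrix gene that rose was serpinh1b, the chaperone that folds collagen in the endoplasmic reticulum, with 7.21, 7.25, 7.04 and 7.67 log2 RPM in PFOS10 larvae, against 6.83, 6.59, 6.49 and 6.21 in Control larvae. All PFOS10 values were above Control, and the difference of 0.76 ± 0.18 (SE, adjusted p = 0.017) missed the threshold without Control replicate 4, the lowest pool (adjusted p = 0.0767).

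Some genes of the inner ear fell (32.1% of its list and 24.0% of the parvalbumin and S100 list, against 6.97% of all genes tested). Its hair cells turn sound into nerve signals through calcium-driven release of transmitter. Whole larvae were sequenced, so the falls cannot be placed in the ear. Of 28 genes of otoliths and inner ear 9 fell and 0 rose (median -0.57; 4 without Control replicate 4), and of 25 parvalbumins and S100 proteins, a list that shares members with it, 6 fell and 1 rose (median -0.38). otofb, an otoferlin that couples calcium to transmitter release in hair cells, had 2.96, 2.91, 2.48 and 3.36 log2 RPM in PFOS10 larvae, against 4.80, 4.65, 4.24 and 4.90 in Control larvae. s100s, a calcium-binding S100 protein, had 1.80, 2.85, 2.63 and 2.76 log2 RPM in PFOS10 larvae, against 4.65, 4.29, 4.42 and 4.32 in Control larvae. pvalb8, a calcium-binding parvalbumin, had 5.55, 6.85, 6.64 and 6.06 log2 RPM in PFOS10 larvae, against 8.10, 8.01, 7.71 and 8.05 in Control larvae. The groups did not overlap in any of them. The differences were -1.72 ± 0.23 (adjusted p = 0.000741) at chromosome 17, 50317833 to 50374005, -1.91 ± 0.23 (adjusted p = 0.000404) at chromosome 19, 7597936 to 7609286 and -1.69 ± 0.41 (adjusted p = 0.0194) at chromosome 3, 61154219 to 61162750. The calls of otofb and s100s held without each library, and pvalb8 was lost without PFOS10 replicate 1 or Control replicate 4 (up to 0.0665). Of the parvalbumin and S100 list 1 to 11 genes fell over the fits that each left out 1 library. It was 1 without Control replicate 4 and without PFOS10 replicate 1. Under quantile normalization 2 genes of that list fell and 2 rose, with a median of -0.33.

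mych, a transcription factor of the Myc family that was chosen after its values were seen, had the smallest adjusted p of all genes. It had 5.80, 5.75, 6.13 and 6.05 log2 RPM in PFOS10 larvae, against 7.07, 7.01, 6.99 and 7.16 in Control larvae. The pools of each group lay close together and the groups were far apart, with a difference of -1.12 ± 0.10 (SE, adjusted p = 1.35e-05) at chromosome 6, 50451337 to 50454833. Of 50 immediate early genes, which cells switch on within minutes of a stimulus, 15 fell and 1 rose (median -0.16; 2 to 17 lower over the fits that each left out 1 library, fewest without Control replicate 4). The falls were 30.0% of the immediate early list, against 6.97% of all genes tested. Under quantile normalization 6 genes of the list fell, and with only the groups compared 7. klf2a, a transcription factor of blood vessels that responds to flow, had 5.40, 4.62, 5.67 and 5.03 log2 RPM in PFOS10 larvae, against 6.51, 6.17, 6.14 and 6.58 in Control larvae. fosaa, a subunit of the AP-1 factor, had 2.52, 2.33, 3.12 and 2.29 log2 RPM in PFOS10 larvae, against 3.03, 3.22, 3.55 and 3.71 in Control larvae. The klf2a groups did not overlap and the fosaa groups did at a single pool. The differences were -1.17 ± 0.26 (adjusted p = 0.0118) and -0.81 ± 0.19 (adjusted p = 0.0175), and both were lost without Control replicate 4 (0.0518 and 0.0797). The member that rose, gadd45gb.1, of a family of growth-arrest and DNA-demethylation factors, had 6.21, 5.78, 5.93 and 5.93 log2 RPM in PFOS10 larvae, against 5.39, 5.28, 5.57 and 5.12 in Control larvae. All its PFOS10 values were above Control, and the difference of 0.62 ± 0.13 (SE, adjusted p = 0.00783) held without each library. Of 59 genes of innate immunity and inflammation 10 fell and 0 rose (median -0.41; 5 to 14 over the fits that each left out 1 library, fewest without Control replicate 1, and 6 under quantile normalization). The falls were 16.9% of the innate immune list, against 6.97% of all genes tested. csf1ra, a receptor of macrophages and yellow pigment cells, had 2.47, 2.09, 1.88 and 1.85 log2 RPM in PFOS10 larvae, against 2.96, 3.37, 2.93 and 2.83 in Control larvae and differed by -0.95 ± 0.18 (SE, adjusted p = 0.0063), without overlap and with the call kept without each library.

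The rises were fewer and smaller, and the list with most of them held genes of neural progenitors; with equal library medians rises outnumbered falls, and the splicing list held more. Proneural basic helix-loop-helix (bHLH) factors such as that of neurog1 start neuron formation, and Hairy-related repressors of the her genes, many of them switched on by Notch, keep progenitors from it. Of 63 such genes 18 rose (28.6%, against 1.28% of all genes tested) and 1 fell, with a median difference of 0.27. neurog1 had 4.26, 3.79, 3.91 and 3.91 log2 RPM in PFOS10 larvae, against 3.32, 3.02, 3.46 and 3.36 in Control larvae. Every PFOS10 value was above every Control value, and the difference was 0.68 ± 0.14 (SE, adjusted p = 0.00811) at chromosome 14, 26703331 to 26704829.

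Some genes of the opposite role rose too. her15.2, a Notch-driven repressor of neuron formation, had 4.23, 3.51, 3.71 and 3.56 log2 RPM in PFOS10 larvae, against 3.09, 2.89, 2.98 and 2.92 in Control larvae. her6 had 5.47, 5.39, 5.44 and 5.50 log2 RPM in PFOS10 larvae, against 5.11, 5.02, 4.97 and 4.94 in Control larvae. her9, which keeps progenitors between zones of neuron formation, had 5.70, 5.69, 5.79 and 5.73 log2 RPM in PFOS10 larvae, against 5.37, 5.42, 5.31 and 5.07 in Control larvae. None of these groups overlapped, and the differences were 0.78 ± 0.14 (adjusted p = 0.00376), 0.44 ± 0.09 (adjusted p = 0.00769) and 0.43 ± 0.09 (adjusted p = 0.00769). Reads of her15.2 may be shared with its near-identical copy her15.1, which was chosen after its values were seen and differed by 0.49 ± 0.13 (adjusted p = 0.026), so the values of these copies are uncertain. The call of her15.1 was lost without PFOS10 replicate 1 or Control replicate 2 or 4 (up to 0.0916). sox11b, a factor of young neurons, had 8.61, 8.36, 8.47 and 8.33 log2 RPM in PFOS10 larvae, against 8.04, 8.01, 8.19 and 7.81 in Control larvae and differed by 0.43 ± 0.09 (SE, adjusted p = 0.00888). bhlhe23, a bHLH factor of retinal and brain neurons, had 6.93, 6.92, 6.77 and 6.67 log2 RPM in PFOS10 larvae, against 6.45, 6.38, 6.47 and 6.08 in Control larvae and differed by 0.48 ± 0.09 (SE, adjusted p = 0.00535). The 6 neural genes given with values for each library kept their calls without each library in turn (adjusted p of at most 0.0458). Over the list, 8 to 23 genes were called higher in those fits, with 8 without Control replicate 4, and under quantile normalization and with equal library medians the numbers were 19 and 27. The member that fell was notch2, a Notch receptor, with a difference of -0.37 ± 0.11 (adjusted p = 0.0377), a call lost without any of 6 libraries (up to 0.125). Of 78 markers of neurons and synapses 3 rose (3.85%, against 1.28% of all genes tested) and 1 fell (median 0.17). Their rises numbered 0 to 25 over the fits that each left out 1 library, fewest without Control replicate 4. With equal medians 17 of these markers rose, and with only the groups compared 0.

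Rises were also found among part of the genes known from the eye, while of 49 lens crystallin and fibre genes 0 were called (median -0.19). Of 53 homeobox and related genes of eye and forebrain 7 rose and 1 fell (median 0.13), of 33 opsins 5 rose (median 0.17) and of 70 genes of phototransduction and the visual cycle 6 rose (median 0.18), with 0 falls in the last 2 lists. The rises were 13.2%, 15.2% and 8.57% of the lists, against 1.28% of all genes tested. Neural and eye lists share members, so their counts do not add up to distinct genes. rx1, a homeobox gene of retinal progenitors and photoreceptors, had 6.65, 6.53, 6.55 and 6.42 log2 RPM in PFOS10 larvae, against 6.06, 6.03, 5.86 and 5.96 in Control larvae. six3b, a homeobox gene of eye and forebrain, had 6.87, 6.87, 6.66 and 6.64 log2 RPM in PFOS10 larvae, against 6.41, 6.42, 6.35 and 6.24 in Control larvae. The groups of both genes were apart, with differences of 0.56 ± 0.10 (adjusted p = 0.0046) at chromosome 22, 4999256 to 5006801 and 0.41 ± 0.08 (adjusted p = 0.00644) at chromosome 12, 25600685 to 25603341. atoh7, the bHLH factor that retinal ganglion cells need, had 3.63, 3.43, 3.75 and 3.96 log2 RPM in PFOS10 larvae, against 3.09, 3.23, 3.33 and 3.21 in Control larvae. Its groups were close but did not overlap, and the difference of 0.48 ± 0.14 (SE, adjusted p = 0.044) was lost without any of 6 libraries (up to 0.114), PFOS10 replicate 2 and Control replicate 3 being the exceptions. The 1 gene of the homeobox list that fell was meis1a, with a difference of -0.33 ± 0.09 (adjusted p = 0.0356), overlapping groups and a call lost without any of 7 libraries (up to 0.108).

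Among the opsins, the light-sensing proteins of photoreceptors, rises were found in red, green and blue cone opsins and in a non-visual opsin. The call of the blue cone opsin was lost without PFOS10 replicate 1 or 3 and without Control replicate 1 or 4. The red cone opsin opn1lw2 had 11.34, 11.17, 11.15 and 11.19 log2 RPM in PFOS10 larvae, against 10.76, 10.79, 10.61 and 10.67 in Control larvae. The green cone opsin opn1mw1 had 10.89, 10.98, 10.75 and 10.83 log2 RPM in PFOS10 larvae, against 10.51, 10.61, 10.37 and 10.59 in Control larvae. opn6b, of a family found outside the visual opsins, had 4.35, 4.16, 4.03 and 4.08 log2 RPM in PFOS10 larvae, against 3.12, 3.58, 3.66 and 3.01 in Control larvae. The PFOS10 values were above the Control values in all 3, and PFOS10 replicate 1 was the highest pool for opn1lw2 and opn6b. The differences were 0.50 ± 0.09 (adjusted p = 0.00465), 0.34 ± 0.08 (adjusted p = 0.0183) and 0.81 ± 0.15 (adjusted p = 0.00382), and all 3 calls held without each library. A further green cone opsin, opn1mw2, had 5.54, 4.53, 5.03 and 4.90 log2 RPM in PFOS10 larvae, against 3.92, 4.09, 4.00 and 4.17 in Control larvae. PFOS10 replicate 1 stood above the other 3 PFOS10 pools, and the difference of 0.95 ± 0.26 (SE, adjusted p = 0.031) was lost without PFOS10 replicate 1 or 3 or Control replicate 1, 2 or 4 (up to 0.104). Green cone opsins are near-identical tandem copies, so how reads were split between opn1mw1 and opn1mw2 is uncertain. rlbp1a, a retinaldehyde-binding protein of the visual cycle, differed by 0.39 ± 0.09 (adjusted p = 0.0116) and held without each library. Over the fits that each left out 1 library, 2 to 10 homeobox genes, 3 to 8 opsins and 2 to 7 phototransduction genes were called higher, the fewest without Control replicate 4 for the homeobox genes (2) and the phototransduction genes (2, as without Control replicate 1). With equal medians 14, 8 and 13 genes of these lists rose, against 1132 of the 19289 genes tested. Under quantile normalization 3 phototransduction genes rose, and with only the groups compared 3 opsins and 2 phototransduction genes.

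**Figure D5:**
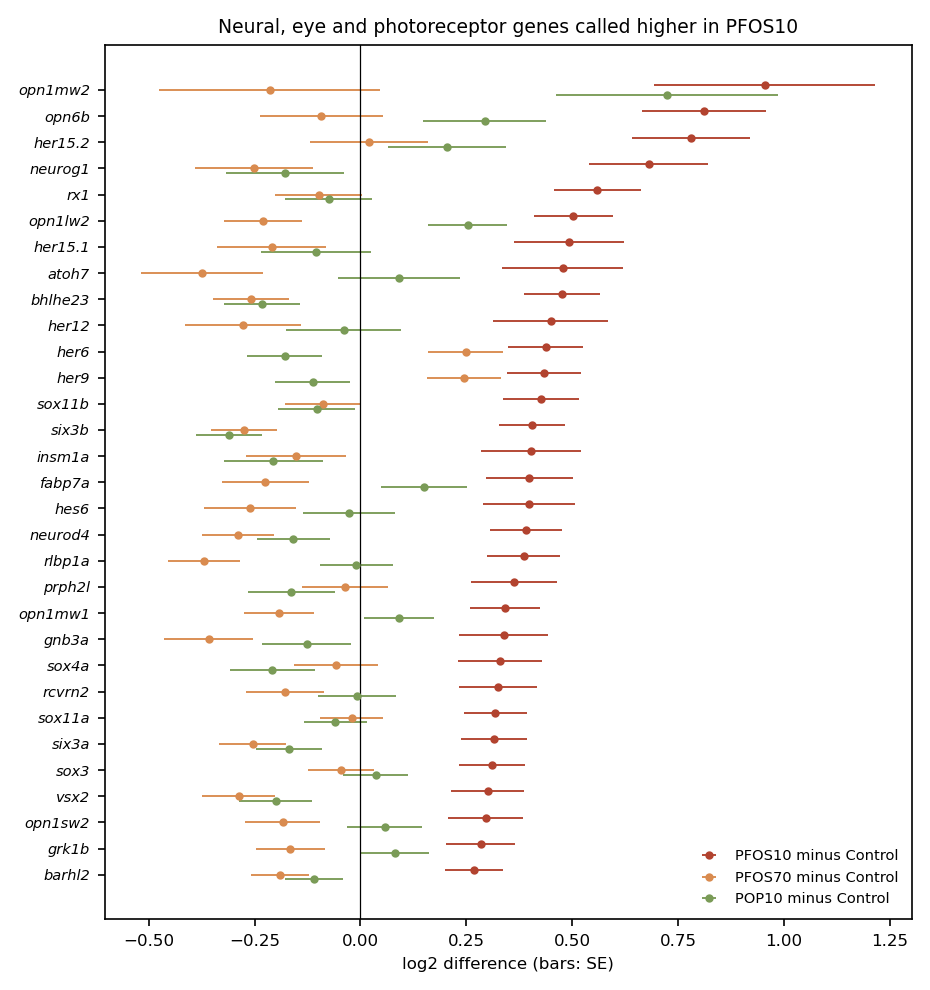
Log2 difference from Control with its SE (horizontal axis) for 31 neural, eye and photoreceptor genes called higher in PFOS10, in PFOS10 (red), PFOS70 (orange) and POP10 (green), which share the 4 Control libraries. The genes were chosen as called in PFOS10, so the red points lie at 0.27 or above by that choice, while the orange and green points lie on both sides of 0.

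A few genes of RNA splicing rose, by small amounts. Of 116 splicing factors and kinases 10 rose (8.62%, against 1.28% of all genes tested) and 0 fell, with a median of 0.15 and 106 positive differences. srsf1b, a serine/arginine-rich factor that helps choose splice sites, had 7.90, 7.91, 7.93 and 7.79 log2 RPM in PFOS10 larvae, against 7.40, 7.52, 7.52 and 7.08 in Control larvae. rsrp1, an arginine/serine-rich protein, had 9.13, 9.34, 9.05 and 8.86 log2 RPM in PFOS10 larvae, against 8.74, 8.59, 8.44 and 8.34 in Control larvae. rbm5, which regulates alternative splicing, had 8.66, 8.86, 8.90 and 8.66 log2 RPM in PFOS10 larvae, against 8.47, 8.57, 8.41 and 8.18 in Control larvae. The groups did not overlap in any of these genes. The differences were 0.50 ± 0.09 (adjusted p = 0.00257), 0.57 ± 0.12 (adjusted p = 0.00928) and 0.36 ± 0.09 (adjusted p = 0.0179). srsf1b and rsrp1 kept their calls without each library, and rbm5 was lost without PFOS10 replicate 3 or Control replicate 4 (up to 0.0841). Rises in the list numbered 2 without Control replicate 4, 6 after quantile normalization, 36 with equal medians and 3 with only the groups compared.

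The title of the series names calcium signalling, which carries excitation in nerve and muscle. Of 43 calcium channel genes 1 fell and 0 rose, of 48 genes of calcium stores, release and pumps 4 fell (8.33%, near the 6.97% of all genes tested) and 0 rose, and of 41 genes of calmodulin, its kinases and calcineurin 0 fell and 1 rose. Their medians were 0.15, -0.15 and 0.06, and under quantile normalization 1 of the store genes fell. itpr3, a receptor that releases calcium from the endoplasmic reticulum, had 5.22, 5.52, 5.27 and 5.34 log2 RPM in PFOS10 larvae, against 6.05, 6.27, 5.94 and 6.17 in Control larvae. The groups were apart, and the difference of -0.77 ± 0.11 (SE, adjusted p = 0.00104) at chromosome 8, 21254192 to 21353035 held without each library. atp2a1l, a calcium pump of muscle, had 9.75, 10.24, 9.94 and 10.09 log2 RPM in PFOS10 larvae, against 10.56, 10.42, 10.45 and 10.78 in Control larvae. The groups did not overlap, and the difference was -0.55 ± 0.15 (SE, adjusted p = 0.0304). jph1a, which ties the surface membrane to the calcium store in muscle, and stim2a, a sensor of store calcium, differed by -0.44 ± 0.12 (adjusted p = 0.0328) and -0.37 ± 0.11 (adjusted p = 0.0426), without overlap. The calls of atp2a1l, jph1a and stim2a were each lost without 5 or 6 of the 8 libraries, Control replicate 4 among them (adjusted p up to 0.115, 0.0976 and 0.137).

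Of the 65 lists 10 had no call in either direction. Beside the endocrine islet, these were estrogen response and vitellogenins (8 genes, median -0.08), cytosolic ribosomal proteins (83 genes, median -0.12), mitochondrial ribosomal proteins (75, -0.06), proteasome and ubiquitin (53, -0.02), mitochondrially encoded genes (13, 0.06), lens crystallins (49, -0.19), cartilage and bone (28, -0.23), vasculature (27, -0.33) and GABA and glycine signalling (40, 0.14). A count of 0 does not show that their levels were equal, and over the fits that each left out 1 library up to 9 cytosolic ribosomal genes were called lower and up to 4 genes of GABA and glycine signalling higher. The medians of the proteasome list and of mitochondrial ribosomal proteins changed sign with equal medians (0.07 and 0.03), but not after quantile normalization (-0.04 and -0.04). That of the estrogen list changed sign under both, with 0.20 under quantile normalization and 0.01 with equal medians.

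Other genes among the 15 largest called changes in each direction were of mixed roles. zanl, a zonadhesin-like gene, differed by -1.71 ± 0.35 (adjusted p = 0.0082) and slc43a2b, an amino acid transporter, by -1.31 ± 0.30 (adjusted p = 0.0143), both without overlap. On the higher side were slc25a36a, a mitochondrial carrier of pyrimidine nucleotides (0.44 ± 0.10 (adjusted p = 0.0107)), crabp1a, a retinoic acid-binding protein (0.43 ± 0.11 (adjusted p = 0.0212)), tal1, a transcription factor of blood progenitors (0.43 ± 0.10 (adjusted p = 0.0167)), rcor2, a corepressor (0.48 ± 0.15 (adjusted p = 0.0443)), and fmnl1a, a formin (0.48 ± 0.14 (adjusted p = 0.0439)). In these 5 genes all PFOS10 values were above all Control values. The ranking took only genes whose groups did not overlap, so the separation of these 5, zanl and slc43a2b follows from that choice. Each of the 5 missed the threshold without Control replicate 4, crabp1a, rcor2 and fmnl1a also without Control replicates 1 and 2 and PFOS10 replicate 3, and tal1 also without PFOS10 replicate 3, while zanl kept its call without each library. Adjusted p for the 5 was up to 0.162. slc43a2b was lost without Control replicate 4 (adjusted p = 0.0654). Of the genes of vitamin D, cyp24a1, whose enzyme inactivates it, had 3.36, 4.26, 4.25 and 3.52 log2 RPM in PFOS10 larvae, against 4.56, 4.97, 4.62 and 7.01 in Control larvae. Control replicate 4 was far above the other pools, the groups did not overlap, and the difference of -1.44 ± 0.37 (SE, adjusted p = 0.0225) was lost without PFOS10 replicate 1 (adjusted p = 0.0728). gc, the vitamin D carrier of plasma, differed by -1.72 ± 0.49 (adjusted p = 0.0362) with overlap, a call lost without any of 5 libraries (up to 0.148).

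PFOS10 larvae also differed from larvae at the higher level of PFOS. Tested directly, PFOS10 differed from PFOS70 in 6634 genes (34.4%), with 2077 higher (10.8%) and 4557 lower (23.6%) in PFOS10. The higher ones were 3865 of 7003 after quantile normalization and 4933 of 8399 with equal medians. PFOS70 against Control gave 0 called genes by limma, and 2257 with an unadjusted p under 0.05. The comparisons of PFOS10 with Control and with PFOS70 share the PFOS10 libraries, so their calls are not independent of each other. The ranking took genes called with non-overlapping groups, no clone name and a mean of at least 5 log2 RPM over the PFOS10 and Control libraries. Among these, fabp10a, pck1 and fga were the farthest below PFOS70. pck1 averaged 4.55 ± 0.95 log2 RPM in PFOS10, 8.16 ± 0.30 in PFOS70 and 7.74 ± 1.0 in Control (SD, n = 4 each). fabp10a averaged 4.39 ± 1.78 in PFOS10, 8.23 ± 0.39 in PFOS70 and 6.32 ± 1.14 in Control. fga averaged 4.84 ± 1.01 in PFOS10, 7.54 ± 0.26 in PFOS70 and 6.42 ± 0.94 in Control. For all 3 the PFOS70 mean lay above that of Control, while that of PFOS10 lay below it, and the differences between PFOS10 and PFOS70 were -3.61 ± 0.46 (adjusted p = 3.29e-05), -3.83 ± 0.61 (adjusted p = 0.000153) and -2.71 ± 0.40 (adjusted p = 9.13e-05). ces2, a carboxylesterase, and tfa, the iron carrier transferrin, were the next, with -2.58 ± 0.42 (adjusted p = 0.000175) and -2.58 ± 0.43 (adjusted p = 0.000226). Farthest above PFOS70 were pax10, an eye gene related to pax6 (0.89 ± 0.13 (adjusted p = 8.06e-05)), gadd45gb.1 (0.86 ± 0.13 (adjusted p = 8.89e-05)), snx8b, a sorting nexin (0.86 ± 0.17 (adjusted p = 0.000829)), trpm1a, an ion channel (0.85 ± 0.14 (adjusted p = 0.000248)), and gria4a, a glutamate receptor subunit (0.81 ± 0.13 (adjusted p = 0.000175)). Of these 5 genes gadd45gb.1 was also called against Control, and with equal medians the other 4 were called higher than Control too.

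PFOS10 larvae differed from larvae in the mixture holding the same amount of PFOS as well. PFOS10 differed from POP10 in 6051 genes (31.4%), with 2239 higher (11.6%) and 3812 lower (19.8%) in PFOS10. The higher ones were 2905 of 5642 after quantile normalization and 4199 of 7218 with equal medians. POP10 against Control gave 0 called genes by limma, with 1857 at an unadjusted p under 0.05. Genes were ranked under the same limits as against PFOS70, with PFOS10 and POP10 groups that did not overlap. Among them pck1 was the farthest below POP10, followed by fabp10a and fkbp5. fkbp5 averaged 6.31 ± 0.44 log2 RPM in PFOS10, 8.82 ± 0.21 in POP10 and 7.85 ± 0.69 in Control (SD, n = 4 each). The difference between PFOS10 and POP10 was -2.52 ± 0.26 (adjusted p = 1e-05) for fkbp5, -3.42 ± 0.46 (adjusted p = 0.000109) for pck1 and -2.70 ± 0.61 (adjusted p = 0.0032) for fabp10a. g6pca.2 and chia.2, an acidic chitinase of the gut, differed by -2.35 ± 0.32 (adjusted p = 0.000113) and -2.16 ± 0.59 (adjusted p = 0.0101). Farthest above POP10 were otpa, a homeobox gene of the hypothalamus (0.95 ± 0.20 (adjusted p = 0.00198)), foxb1a, a forkhead factor of brain and hypothalamus (0.94 ± 0.25 (adjusted p = 0.0079)), cspg5a, a brain proteoglycan (0.88 ± 0.21 (adjusted p = 0.00518)), shisa6, a partner of glutamate receptors (0.84 ± 0.20 (adjusted p = 0.00399)), and nrxn2b, a synaptic adhesion protein (0.84 ± 0.22 (adjusted p = 0.00784)). None of these 5 was called against Control, where their adjusted p ran from 0.139 to 0.387.

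Set side by side, 4 lists are given here whose medians were near or on the other side of 0 in PFOS70 and POP10. All were measured from the same 4 Control libraries. The median difference from Control of hepatocyte genes was -1.35 in PFOS10, 1.08 in PFOS70 and 0.38 in POP10. That of glucocorticoid genes was -0.47 in PFOS10, 0.04 in PFOS70 and 0.15 in POP10. For ionocyte genes it was -0.54 in PFOS10, 0.22 in PFOS70 and 0.16 in POP10. In the neural progenitor list it was 0.27 in PFOS10, -0.12 in PFOS70 and -0.07 in POP10. Such a change of side was not particular to these lists. Exocrine pancreas enzymes had medians of -1.58 in PFOS10, 0.78 in PFOS70 and 0.16 in POP10, and keratin genes -0.59, 0.34 and 0.29. Immediate early genes stayed below 0 in each, with -0.16, -0.07 and -0.03. Counted in the direct tests, 40 of 63 neural progenitor genes were higher in PFOS10 than in PFOS70 and 31 higher than in POP10. Of all genes tested, 10.8% and 11.6% were higher in these tests, and more under the other scalings. Of the hepatocyte genes 35 of 36 were lower in PFOS10 than in PFOS70 and 34 lower than in POP10, against 23.6% and 19.8% of all genes tested. The plot of list levels by library shows these groups, with the PFOS10 pools outside the range of the PFOS70 and POP10 pools in the hepatocyte, glucocorticoid, ionocyte and neural progenitor lists.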

How the data were processed

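RNA sequencing libraries of 8 pools of larvae were compared, within 20 libraries of 5 groups. In 1 table, the authors deposited log2 values for 48838 transcripts in each library. STAR 2.5.4b, Trim Galore 0.4.5, R 3.5.0, the build GRCz11 and DESeq2 are listed in the submitters' processing notes, with no role or order, while the step that made the log2 values was not given in the sources used here. Each value could be read as the log2 of RPM (a library's reads scaled to a common total), with 0 reads written as 0.9 reads: 100% of values of few reads came out whole within 0.05 reads, at 8572286 to 11243574 reads per library. Strand and the handling of reads shared by near-identical copies are not given either.

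Rows were reduced to 1 per gene name, the transcript of highest mean level. limma 3.58.1 in R 4.3.3 was fitted once to all 20 libraries, group being the single term (15 residual degrees of freedom), with a mean-variance trend and a two-sided moderated test, adjusted by Benjamini-Hochberg over the 19289 genes tested, with no further pseudocount. Fold changes are on this log2 scale. They can be understated for genes with 0 reads in some libraries, since 0 was written as 0.9 reads, and those of low genes rest on few reads. The fit was tested on simulated data with independent noise, of equal spread in each group. That test does not cover shifts of many genes in a single pool, or spreads that differ between groups. Standard errors are the model's, from the variation among pools shared over all 20 libraries. The mean level of hepatocyte genes varied more in PFOS10 and Control (SD 0.65 and 0.84) than in PFOS70 and POP10 (0.38 and 0.30). For such genes the shared spread can be smaller than that of the groups compared. In fin fold genes the SD was 0.15 and 0.09 in PFOS10 and Control, against 0.25 and 0.10.

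The comparison, the 65 gene lists and the rule for naming genes were chosen with earlier results of these data known. The rule took the 15 largest called changes in each direction whose groups did not overlap and whose mean reached 5 log2 RPM, leaving out clone names. It took up to 4 called members of a list in each direction whose mean reached 2 log2 RPM. For the direct tests it took the 5 largest differences in each direction under the first limits. Each mean was taken over the PFOS10 and Control libraries. Not all 228 genes it gave, with those chosen after their values were seen, are described, and results on 1 further gene pair are not reported here. Alternatives were other filters, scalings, damping, voom on recovered reads, another transcript per gene, a replicate block, only the groups compared, and each library left out.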

Additional observations from a re-analysis of the deposited data

Results flagged for a closer look

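In 102 of the 228 named genes, not all of them described above, each group of 4 libraries was checked for an outlying pool. A pool was flagged where its gap to the nearest other pool exceeded Dixon's 95% critical share of the group's range. Of the 204 groups 9 held one. Chance flags about 1 in 20 groups. Of the PFOS10 pools, replicate 4 was low for cyp2p8 (1.53 log2 RPM, against 2.36 to 2.51 in the other PFOS10 pools), for gadd45bb (1.14, against 1.91 to 2.00) and for tal1 (6.22, against 6.51 to 6.55). It was high for sparc (10.14, against 9.89 to 9.93). PFOS10 replicate 2 was low for krt92 (6.46, against 7.13 to 7.24).

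Of the Control pools, replicate 4 was high for fetub (8.32, against 6.79 to 6.87 in the other Control pools), for agxta (5.61, against 3.79 to 4.04) and for cyp24a1 (7.01, against 4.56 to 4.97). Control replicate 2 was high for the elastase gene ela2 (4.69, against 3.44 to 3.55).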

How the results depend on the processing

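Of the 3 comparisons, those of PFOS10 with PFOS70 and POP10 kept their number of called genes within 1.5 times under each alternative run. For PFOS10 against Control, quantile normalization gave 820 called genes (559 lower), a fit of only the groups compared 933 (70 higher, 863 lower) and equal medians 1132 higher. With each library left out in turn, 367 to 2516 genes were called, 24 to 863 higher and 343 to 1653 lower. No filter gave 1123, a stricter filter 1335, damping 1397, voom 1124 and the lowest-numbered transcript 1538. With the replicate block the number was 1966. Same-numbered PFOS10 and Control pools correlated at -0.15 to -0.01 in their deviations from the group means. PFOS10 pools correlated at 0.07 to 0.12 with same-numbered PFOS70 pools and at -0.01 to 0.11 with POP10 pools. The labels do not say whether same-numbered pools were handled together, and this cannot be told from these values. Of 194 named genes called, 59 kept the call without each of the 8 libraries, 62 without Control replicate 4 and 127 under both other scalings. The causes were not tested. Depth limits genes of few reads most, since 1 RPM stood for 8.57 to 11.2 reads.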
